A study of Homo sapiens with 12 samples.

Results

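Mitochondrial ribosomal proteins are the proteins of the ribosome that works inside mitochondria, and their genes carry symbols that begin with MRPL (large subunit) or MRPS (small subunit). Members were chosen by symbol, as all genes whose name begins with MRPL or MRPS and a digit, with pseudogenes left out. Each gene was read from a probe set annotated to that gene alone, and where a gene had several, from the one with the highest mean over the 12 arrays. The symbol rule uses no measured value, and the mean that picks the probe set does not look at treatment, but the set itself was chosen with earlier results of these data known. This gave 76 members among the 18239 genes with such a probe set. The reference gene table holds 77 protein-coding genes of this kind, and the missing one, MRPL53, shares its probe set with CCDC142. All 76 members were above the level needed for testing, so none was lost to the filter on dim genes.

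RNA was measured on Affymetrix expression arrays in 3 established human lymphoma lines of the activated B cell-like (ABC) type of diffuse large B cell lymphoma (DLBCL), OCI-LY3, OCI-HBL1 and OCI-LY10 (replicates 1, 2 and 3), under 4 treatments. CPI203 cells received 500 nM of an inhibitor of the BET bromodomain proteins, which bind acetylated chromatin. IRAKi cells received 50 µM of an inhibitor of IRAK kinases, which carry signals from the adaptor MYD88. Combo cells received both agents, and Control cells carry no further treatment detail in their label. By its label IRAKi lasted 6 h and the other 3 groups 24 h, whereas the protocol lists BET inhibition for 18 h and IRAK inhibition for 6 h, so time and treatment differ together wherever IRAKi alone is compared. Each line gave 1 array per treatment, so n = 3 lines in each group, a change within 1 line is 1 array against 1 array with no test, and p-values reflect the spread among these samples alone. Every array received 150 ng of RNA, so fewer cells cannot be told apart from less RNA per cell. The 5 B cell markers measured lay between 6.37 and 12.9 on the log2 scale of the arrays and the 4 markers of the lymphoma subtype between 7.30 and 13.1, whereas 4 T cell and 3 myeloid markers did not exceed 4.92, the plasma cell marker SDC1 4.23, the erythroid marker HBB 5.10 and 2 epithelial markers 6.92. Array medians lay between 4.64 and 4.73. On the IRAKi array of OCI-LY10 the non-specific controls averaged 4.00, against 3.64 to 3.79 elsewhere.

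The mitochondrial ribosome translates the few messenger RNAs encoded by mitochondrial DNA, all of which specify core subunits of the respiratory chain and ATP synthase. Its ribosomal RNAs come from mitochondrial DNA, but every one of its proteins is encoded in the nucleus, translated in the cytosol and imported, so the organelle depends on nuclear transcription for its own translation. Many of these proteins descend from bacterial ribosomal proteins, and others are found only in mitochondria. In B cells and their lymphomas, MYC is known as a driver of ribosome and mitochondrial gene expression, and the promoters of mitochondrial genes are known for sites of ETS family factors such as GABP and of the nuclear respiratory factor NRF1.

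Because many members had lower RNA with Combo, the DNA just before their start sites is shown for 5 of them. MRPL19, MRPL27, MRPS26 and MRPL36 fell with Combo, and MRPS21 did not pass the test there. Each sequence is the 250 bases before the annotated start in RefSeq (GRCh38.p14), written 5′ to 3′ on the strand of the gene. Capitals mark the core of an ETS site (CCGGAAG, or its reverse complement CTTCCGG) or an E-box of the kind MYC and MAX bind (CACGTG). MRPL19 was taken for its change, the lowest with Combo, and the others because their window holds a motif. MRPL27 and MRPS26 are the lowest called members with an ETS core, and MRPL36 is the lowest with an E-box. MRPS21 is the uncalled member of highest change with an ETS core. Their motifs were thus fixed by the choice. MRPL19 spans chr2:75646533-75646782 on the plus strand, MRPL27 chr17:50373185-50373434 on the minus strand, MRPS26 chr20:3045802-3046051 on the plus strand, MRPL36 chr5:1799838-1800087 on the minus strand and MRPS21 chr1:150293611-150293860 on the plus strand.
MRPL19: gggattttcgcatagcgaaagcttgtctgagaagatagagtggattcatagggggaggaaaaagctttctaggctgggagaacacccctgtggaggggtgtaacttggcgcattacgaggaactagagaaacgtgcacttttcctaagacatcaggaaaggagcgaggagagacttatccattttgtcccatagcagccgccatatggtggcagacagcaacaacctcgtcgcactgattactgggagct
MRPL27: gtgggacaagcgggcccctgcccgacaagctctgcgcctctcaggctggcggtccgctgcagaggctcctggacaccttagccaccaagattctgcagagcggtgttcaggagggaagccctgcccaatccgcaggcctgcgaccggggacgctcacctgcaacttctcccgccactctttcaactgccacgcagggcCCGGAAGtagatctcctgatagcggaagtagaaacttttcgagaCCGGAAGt
MRPS26: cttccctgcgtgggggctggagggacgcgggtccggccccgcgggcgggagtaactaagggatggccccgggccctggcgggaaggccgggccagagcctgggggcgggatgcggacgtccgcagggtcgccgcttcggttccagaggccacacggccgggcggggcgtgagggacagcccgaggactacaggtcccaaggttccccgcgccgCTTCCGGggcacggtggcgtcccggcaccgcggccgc
MRPL36: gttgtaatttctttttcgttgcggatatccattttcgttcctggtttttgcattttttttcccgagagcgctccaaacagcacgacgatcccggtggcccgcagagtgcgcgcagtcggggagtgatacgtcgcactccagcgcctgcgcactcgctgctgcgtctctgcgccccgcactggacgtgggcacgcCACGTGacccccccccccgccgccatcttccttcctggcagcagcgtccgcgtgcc
MRPS21: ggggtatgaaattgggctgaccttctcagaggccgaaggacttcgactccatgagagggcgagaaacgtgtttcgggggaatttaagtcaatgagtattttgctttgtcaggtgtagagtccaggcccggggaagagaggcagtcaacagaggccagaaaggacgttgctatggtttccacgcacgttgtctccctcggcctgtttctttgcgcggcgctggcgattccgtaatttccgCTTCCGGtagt

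The window of MRPL27 holds 2 ETS cores, 52 and 8 bases before the start, and those of MRPS26 and MRPS21 hold 1 each. The window of MRPL36 holds 1 E-box, and that of MRPL19 holds none of the motifs searched. Those of MRPL34, MRPL12 and MRPL1, the next lowest with Combo, hold none either. Of the 68 members with an entry in the promoter table, 22 (32.4%) had an ETS core on either strand, against 15.0% of the 10679 promoters of genes tested and 8.82% of all 27305 promoters in the table. The share was 29.8% (14 of 47) among members lower with Combo and 38.1% (8 of 21) among the other members. An E-box was present in 8.82% of members, 8.77% of the promoters of genes tested and 6.49% of all promoters. The palindromic consensus motif of NRF1 was present in 1.47% of members and 1.88% of the promoters of genes tested. An ETS core and an E-box cannot share bases, and a match describes the sequence only.

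Among the treatment comparisons, Combo against Control held the most calls, where a call is an adjusted p below 0.05 in limma, a linear model fitted to all 12 arrays with Benjamini-Hochberg adjustment over the 13120 genes tested. With Combo, 50 of the 76 members fell (65.8%), 1 rose and 25 did not pass the test. Among all genes tested, 16.7% were called lower and 15.4% higher, or 32.1% in either direction. The median member stood at -0.45 (log2 change, Combo minus Control), and the median of all genes tested at -0.00312. The changes ran from -1.48 to 0.46, with quartiles at -0.68 and -0.24. In all 3 lines at once, 66 of the 76 members were lower than Control, beside 3648 of the 13120 genes tested. The number of calls depended on the lines: it was 51 with all lines, 17 when OCI-LY3 was left out, 41 for OCI-HBL1 and 19 for OCI-LY10, while the calls over all genes were 4214, 2072, 3420 and 2232 in those fits. With cell line left out of the model it was 3, of 465 over all genes.

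**Figure D1:**
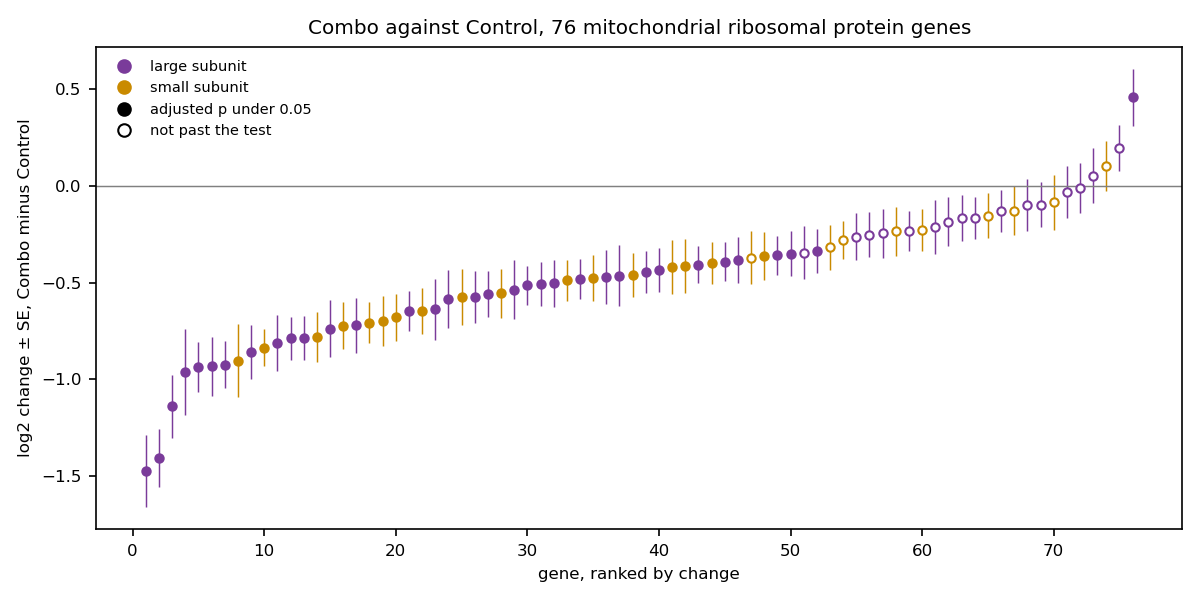
Log2 change (Combo minus Control, points) with its standard error (bars) for the 76 genes, ranked from lowest to highest, in purple for the large and in ochre for the small subunit. Filled points passed the test: 50 lie below 0 and MRPL10, at the right end, above it.

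MRPL19, a large-subunit protein whose bacterial homolog lies at the interface of the 2 subunits, had the lowest change. With Combo it measured 8.98 (OCI-LY3), 9.30 (OCI-HBL1) and 8.08 (OCI-LY10), against 10.48, 10.25 and 10.06 in that order of lines under Control, an order kept below. All Combo values were below all Control values, and MRPL19 fell by 1.48 ± 0.19 (log2 change ± SE, n = 3 lines, adjusted p = 0.00046), to 35.9% of Control. A second, dimmer probe set of the gene gave -1.29. MRPL34, a small protein of the large subunit with a bacterial homolog, measured 10.22, 9.56 and 9.19 with Combo and 11.19, 11.07 and 10.94 under Control. These groups did not overlap either, and MRPL34 fell by 1.41 ± 0.15 (adjusted p = 0.00023), to 37.7% of Control. MRPL12 belongs to the flexible stalk that recruits elongation factors. It measured 8.36, 9.29 and 8.13 with Combo, against 9.76, 9.93 and 9.51 under Control. It was lower in every line, least so in OCI-HBL1, and fell by 1.14 ± 0.16 (adjusted p = 0.00081).

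MRPL27 is a homolog of the bacterial protein that reaches towards the site of peptide bond formation. It measured 9.10, 9.28 and 9.63 with Combo and 10.27, 10.16 and 10.40 under Control, with no overlap, and fell by 0.94 ± 0.13 (adjusted p = 0.00066). MRPS26, a small-subunit protein found only in mitochondria, measured 9.62, 8.46 and 8.44 with Combo and 10.43, 9.31 and 9.28 under Control. The groups overlapped because OCI-LY3 was the highest line under every treatment, but each line was lower with Combo by a like amount, and MRPS26 fell by 0.84 ± 0.10 (adjusted p = 0.00028). The other members among the 10 lowest were MRPL1, a homolog of the bacterial protein of the stalk beside the tRNA exit site (-0.96 ± 0.22), MRPL46, of the central protuberance (-0.93 ± 0.15), MRPL50, found only in mitochondria (-0.92 ± 0.12), MRPS28, a homolog of the bacterial mRNA-binding protein of the small subunit (-0.90 ± 0.19), and MRPL14, at the subunit interface (-0.86 ± 0.14). The dimmer second probe set of MRPL50 did not move with the first and stood at 0.05. In the fits that leave out 1 line, MRPL19, MRPL34, MRPL12, MRPL27 and MRPS26 stayed below an adjusted p of 0.05 each time.

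MRPL10, which anchors the stalk to the large subunit, was the 1 member called higher. It measured 9.73, 9.52 and 9.45 with Combo, against 9.21, 9.07 and 9.05 under Control, with no overlap. MRPL10 rose by 0.46 ± 0.15 (adjusted p = 0.038), and the adjusted p was 0.22 without OCI-LY3 and 0.12 without OCI-LY10. Scaling the arrays by their poly-A spike-in RNA, which moves the median of all genes to -0.49, put MRPL10 at -0.03. Within the stalk, MRPL12 was called lower and MRPL10 higher on the deposited scale, while MRPL11, at the stalk base, stood at -0.25 ± 0.12 and was not called (adjusted p = 0.13).

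**Figure D2:**
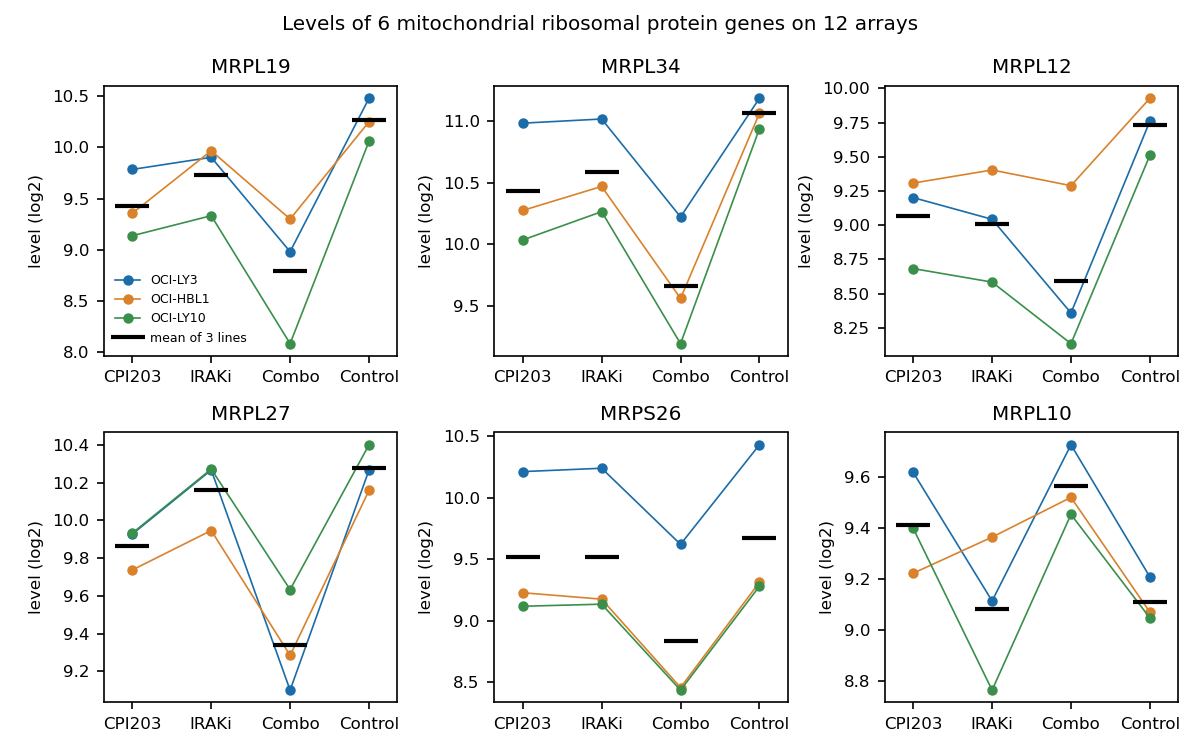
Level (log2) of 6 genes by treatment, with 1 point per cell line joined by a line and a black bar for the mean of the 3 lines. With Combo, MRPL19, MRPL34, MRPL12 and MRPL27 lie below every Control value, MRPS26 is lower in each line, and MRPL10 lies above every Control value.

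Members with other known roles gave a range of changes with Combo. MRPL3, whose inherited defects cause combined deficiency of oxidative phosphorylation, fell by 0.81 ± 0.15 (adjusted p = 0.0026). MRPS12, part of the decoding centre, fell by 0.72 ± 0.12 (adjusted p = 0.0019). The 3 paralogs MRPS18A, MRPS18B and MRPS18C each occupy their own place in the ribosome, and they fell by 0.57 ± 0.13, 0.70 ± 0.13 and 0.55 ± 0.13 (adjusted p = 0.0093, 0.0028 and 0.0085). MRPL45, which tethers the ribosome to the inner membrane, fell by 0.47 ± 0.14 (adjusted p = 0.029), and MRPL58, which frees peptides from stalled ribosomes, by 0.39 ± 0.10 (adjusted p = 0.015). MRPS22, another such disease gene, fell by 0.36 ± 0.12 (adjusted p = 0.048), and MRPS30, which sits in the large subunit despite its symbol, by 0.35 ± 0.12 (adjusted p = 0.045). MRPL44 and MRPS16, both also genes of inherited respiratory chain deficiency, stood at 0.05 ± 0.14 and -0.08 ± 0.14 and were not called (adjusted p = 0.82 and 0.69).

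By subunit, 33 of 50 large-subunit members fell and 1 rose, with a median of -0.45, and 17 of 26 small-subunit members fell, with a median of -0.44. By descent, 34 of 48 members with a bacterial homolog fell and 1 rose (median -0.49), and 16 of 28 found only in mitochondria fell (median -0.38). No test was made between these classes. The 25 members not past the test were MRPL2, MRPL11, MRPL21, MRPL23, MRPL33, MRPL35, MRPL37, MRPL38, MRPL40, MRPL41, MRPL44, MRPL48, MRPL49, MRPL51, MRPL52, MRPL55, MRPS9, MRPS10, MRPS11, MRPS14, MRPS16, MRPS21, MRPS23, MRPS25 and MRPS33, and their changes lay between -0.37 (MRPS14) and 0.20 (MRPL41). Of the 41 members with at least 2 probe sets above the filter, 11 had another probe set of the opposite sign with Combo. Of those 11, the 6 that were called are MRPL9, MRPL17, MRPL20, MRPL43, MRPL50 and MRPS31. Any unused probe set is dimmer than the one used, because the brightest was taken. In these 6 the probe sets of opposite sign averaged between 4.19 (MRPL43) and 5.15 (MRPL50), beside the filter level of 4.20.

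The lines differed in the size of the shift, with 1 array against 1 in each. With Combo the median member changed by -0.46 for OCI-LY3, -0.28 for OCI-HBL1 and -0.56 for OCI-LY10, against medians of all genes tested of -0.00886, 0.00987 and -0.00891. The poly-A spike-in RNA read higher with Combo than under Control by a log2 difference of 0.73, 0.22 and 0.50 in these lines as listed, and its part in the difference between lines was not tested. Over the lines, the spike-in difference from Control averaged 0.31 ± 0.17 for CPI203, 0.23 ± 0.04 for IRAKi, and 0.48 ± 0.26 for Combo (SD, n = 3), and all changes here are on the deposited scale, relative to the median gene.

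**Figure D3:**
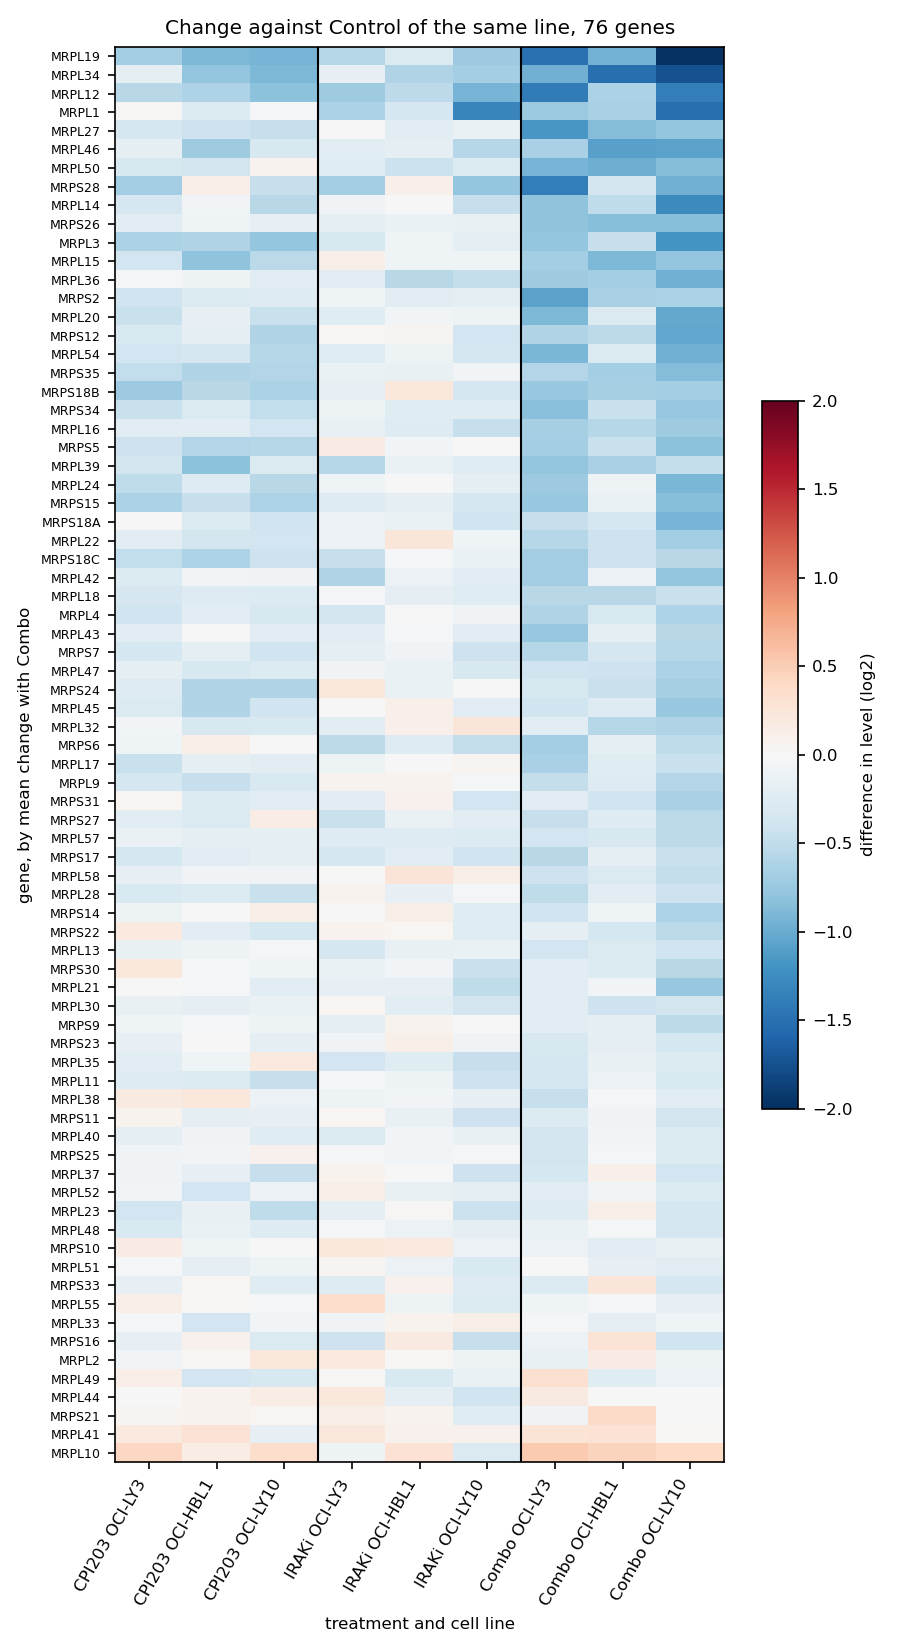
Difference in level (log2, colour scale from -2 to 2) from the Control array of the same line, for the 76 genes (rows, ordered by their mean change with Combo) on the 9 arrays of treated cells (columns, in the order CPI203, IRAKi and Combo). The Combo columns are blue in most rows, palest in OCI-HBL1, and MRPL19 in OCI-LY10 is the darkest cell.

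Part of the set was lower with CPI203 alone. Against Control, 11 of 76 members fell (14.5%) and none rose, beside 6.21% of all genes tested called lower and 6.92% higher (13.1% in all). The median member stood at -0.22, and 51 of 76 members were lower in all 3 lines at once, beside 3305 of the 13120 genes tested. Without OCI-LY3, OCI-HBL1 or OCI-LY10 the count of calls was 1, 4 or 0, of 216, 720 or 282 over all genes in place of 1723, and with cell line left out of the model it was 0 of 4.

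MRPL19 measured 9.79, 9.36 and 9.14 with CPI203, below all 3 Control values given above, and fell by 0.84 ± 0.19 (adjusted p = 0.019). MRPL12 measured 9.20, 9.31 and 8.68, also below all its Control values, and fell by 0.67 ± 0.16 (adjusted p = 0.026). MRPL34 measured 10.99, 10.28 and 10.04 and fell by 0.63 ± 0.15 (adjusted p = 0.025), with a value in OCI-LY3 that lay inside the Control range. The other 8 called members were MRPL3, MRPL15, MRPS5, MRPS15, MRPS18B, MRPS18C, MRPS24 and MRPS35, with changes between -0.66 (MRPL3) and -0.49 (MRPS24). Of the 11, 10 have a bacterial homolog, as do 48 of the 76 members, and the exception is MRPS35.

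IRAKi alone gave no call. Against Control, 0 of 76 members passed the adjusted test in limma, beside 22 of all genes tested (0.168%, with 0.0534% lower and 0.114% higher), and 12 members (15.8%) had an unadjusted p below 0.05, as did 15.4% of all genes tested. The median member stood at -0.15, with 66 of 76 changes below 0. The median of all genes tested was -0.00074, with 6579 of 13120 below 0. By line the median member stood at -0.12 (OCI-LY3), -0.09 (OCI-HBL1) and -0.24 (OCI-LY10), and all genes at 0.05, 0.01 and -0.07. The OCI-LY10 array here is the one with the higher non-specific controls. The lowest changes were those of MRPL1 and MRPL12. MRPL1 measured 9.72, 9.83 and 9.15 with IRAKi, against 10.35, 10.17 and 10.47 under Control, with no overlap and a change of -0.77 ± 0.22 (adjusted p = 0.16). MRPL12 measured 9.04, 9.40 and 8.58 with IRAKi, all below its Control values, with a change of -0.72 ± 0.16 (adjusted p = 0.10). The count was also 0 without the OCI-LY10 IRAKi array.

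Adding the IRAK inhibitor to CPI203 was read from Combo against CPI203, both labelled 24 h. Here 6 of 76 members fell (7.89%) and none rose, beside 2.71% of all genes tested called lower and 1.96% higher (4.66% in all), and the median member stood at -0.21. MRPL36, a small protein of the large subunit with a bacterial homolog, measured 10.52, 10.32 and 10.86 with Combo, against 11.22, 10.91 and 11.60 with CPI203. The groups did not overlap, and MRPL36 fell by 0.68 ± 0.11 (adjusted p = 0.017). MRPL34 fell by 0.77 ± 0.15, MRPL50 by 0.72 ± 0.12, MRPS26 by 0.68 ± 0.10, MRPL27 by 0.53 ± 0.13 and MRPS6 by 0.47 ± 0.11, with adjusted p between 0.0096 and 0.049. Leaving out any of the 3 lines left no member called in this comparison, and over all genes 0, 3 and 0 were called without OCI-LY3, OCI-HBL1 and OCI-LY10, in place of 612.

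Adding CPI203 to the IRAK inhibitor was read from Combo against IRAKi, labelled 24 h and 6 h. In it 26 members fell (34.2%) and 1 rose, beside 10.5% of all genes tested called lower and 8.21% higher (18.7% in all), with a median of -0.32. The lowest were MRPL19 at -0.95 ± 0.19 (adjusted p = 0.0080), MRPL34 at -0.93 ± 0.15 (adjusted p = 0.0037), MRPL27 at -0.82 ± 0.13 (adjusted p = 0.0031) and MRPL15 at -0.77 ± 0.11 (adjusted p = 0.0022). MRPL10 measured 9.11, 9.36 and 8.76 with IRAKi, each below its Combo value in the same line, and was called higher by 0.49 ± 0.15 (adjusted p = 0.046). The count of 27 was 16, all lower, without the OCI-LY10 IRAKi array, and 4, 20 and 5 when OCI-LY3, OCI-HBL1 or OCI-LY10 was left out, while the calls over all genes were 2456 in full, 1487 without that array and 526, 1704 and 730 without those lines.

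The interaction term, Combo minus CPI203 minus IRAKi plus Control, measures the departure from adding the single log2 changes. No member was called in it, beside 1 gene of all tested (0.00762%), and 5 members (6.58%) had an unadjusted p below 0.05, as did 8.27% of all genes tested. Its median over the members was -0.06. The member with the lowest interaction was MRPS26, at -0.52 ± 0.13 (adjusted p = 0.44), which had -0.16 with CPI203, -0.16 with IRAKi and -0.84 with Combo. A p that misses the threshold here does not show that the changes add. Comparisons with a common group share its arrays, and the 11 members lower with CPI203, the 6 lower against CPI203 and the 26 lower against IRAKi all lie within the 50 lower with Combo.

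**Figure D4:**
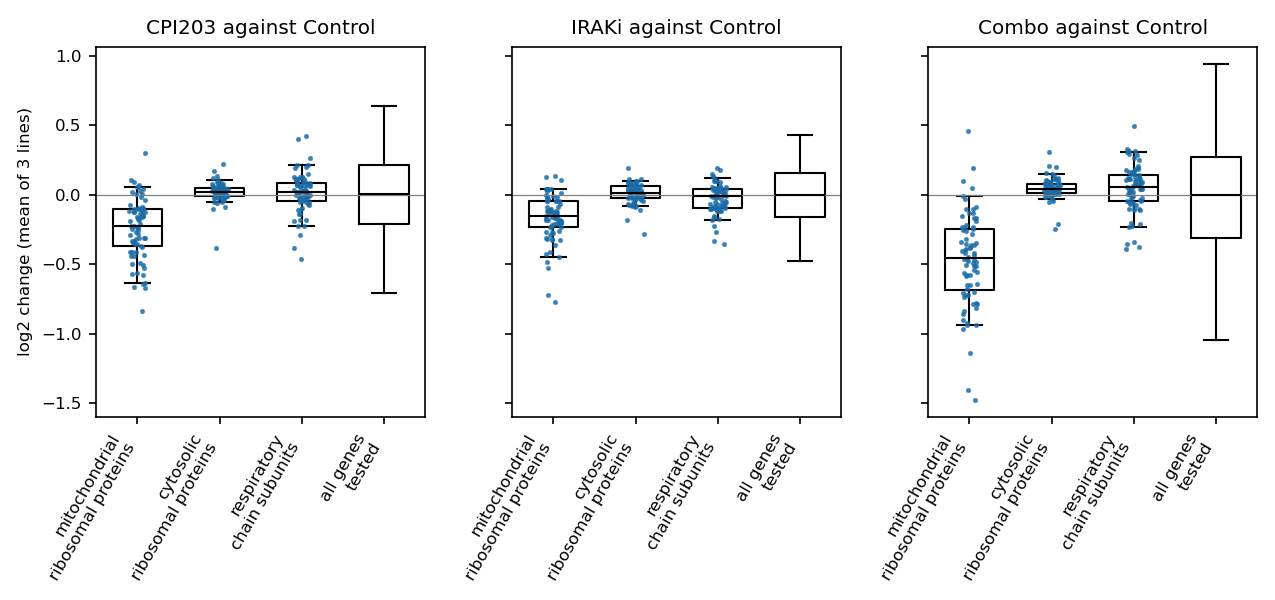
Log2 change (mean of 3 lines) against Control in the 3 treatments, for the mitochondrial ribosomal proteins, cytosolic ribosomal proteins, respiratory chain subunits and all genes tested. Boxes show the quartiles and median, whiskers the 5th and 95th percentiles and points single genes (not drawn for all genes), and the mitochondrial set has the lowest median in each panel.

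Cytosolic ribosomal proteins, which build the ribosome of the cytosol, served as a set of like size. With Combo, 0 of 68 passed the adjusted test in limma and 1 had an unadjusted p below 0.05, beside 41.7% of all genes, with a median of 0.04 and changes between -0.25 and 0.31. Nuclear subunits of the respiratory chain and ATP synthase, which assemble with the products of mitochondrial translation, had 2 called higher and 2 lower of 75 tested, with a median of 0.06. With CPI203, 0 of 68 and 2 of 75 were called (0 and 5 at an unadjusted p below 0.05, beside 28.3% of all genes), and with IRAKi 0 in either set (1 and 1 unadjusted). These are counts set side by side, and no test was made between the sets. Between cell lines too, 62, 59 and 58 of the 68 cytosolic genes were not called in the 3 comparisons given below. Of all genes, 47.2%, 48.5% and 46.6% were called there. The cytosolic set thus had few calls in every comparison, and whether its signals on these arrays could register a change was not tested.

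The wider machinery of mitochondrial translation held further genes lower with Combo, in lists to be read beside the 16.7% of all genes tested that were lower and the 15.4% that were higher. Of 4 subunits of the ribosome without an MRP symbol, GADD45GIP1 fell by 0.57 ± 0.12, CHCHD1 by 0.49 ± 0.12 and PTCD3 by 0.40 ± 0.12, while DAP3 stood at 0.06 ± 0.10 (adjusted p = 0.0056, 0.0099, 0.031 and 0.68). Of 28 factors that assemble the ribosome or act on mitochondrial RNA, 11 fell (39.3%) and 2 rose (7.14%). FASTKD2, which binds the large ribosomal RNA, fell by 1.48 ± 0.12, NSUN4, an rRNA methyltransferase, by 1.41 ± 0.19, MRM1, another, by 1.37 ± 0.15, and RCC1L, an assembly factor, by 0.93 ± 0.15. MRM1 was dim with Combo, down to 4.54 in OCI-LY10. NOA1, a GTPase of ribosome assembly, rose by 0.70 ± 0.11, and MTERF3, a regulator of mitochondrial transcription and ribosome assembly, by 0.48 ± 0.11. Of 13 translation factors, 5 fell (38.5%) and 2 rose (15.4%, the share of all genes tested). TACO1, the activator of translation of a cytochrome oxidase subunit, fell by 1.27 ± 0.10, and the release factor MTRF1 by 0.76 ± 0.13, whereas its relative MTRF1L rose by 0.83 ± 0.15 and MTFMT, which formylates the initiator tRNA, by 0.50 ± 0.16. Of 16 mitochondrial tRNA synthetases, which charge tRNAs with amino acids, 10 fell (62.5%) and none rose, led by LARS2 at -1.21 ± 0.13, YARS2 at -1.18 ± 0.11 and TARS2 at -0.96 ± 0.15. All of these named calls had adjusted p of at most 0.037.

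Of 12 known regulators of mitochondrial genes, 6 fell with Combo (50.0%, beside 16.7% of all genes tested) and 1 rose (8.33%, beside 15.4%). MYC measured 9.73, 10.85 and 9.37 with Combo, against 11.90, 11.77 and 11.08 under Control, with no overlap. It fell by 1.60 ± 0.21 (adjusted p = 0.00059). Like the median member, MYC changed least in OCI-HBL1, but MYC fell most in OCI-LY3 and the median member in OCI-LY10. The median of the 12 regulators instead changed least in OCI-LY3, at -0.19, against -0.47 for OCI-HBL1 and -0.53 for OCI-LY10. These are statements on 3 pairs of arrays with no test. With CPI203 alone MYC stood at -0.57 ± 0.21 (adjusted p = 0.11), and with IRAKi at -0.35 ± 0.21 (adjusted p = 0.47). PPRC1 and PPARGC1B, coactivators of mitochondrial biogenesis, fell by 0.91 ± 0.13 and 0.85 ± 0.20, and POLRMT, the mitochondrial RNA polymerase, by 0.79 ± 0.18. PPARGC1B was dim, at 4.65, 4.61 and 4.92 with Combo, near the filter level of 4.20, which limits its change. NRF1, the nuclear respiratory factor, rose by 1.01 ± 0.12 with Combo (adjusted p = 0.00038) and by 0.65 ± 0.12 with CPI203 (adjusted p = 0.011). What part these genes have in the changes of the members was not tested.

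Between cell lines, over 4 arrays each, members differed in both directions, as did genes in general, and some shares lay near those of all genes. OCI-LY3 against OCI-HBL1 had 19 members higher and 24 lower, beside 25.1% of all genes tested called higher and 22.2% lower (47.2% in all). OCI-LY10 against OCI-HBL1 had 17 higher (22.4%) and 34 lower (44.7%), beside 22.8% and 25.8% of all genes (48.5% in all). OCI-LY3 against OCI-LY10 had 25 higher (32.9%) and 14 lower (18.4%), beside 26% and 20.6% (46.6% in all). The 4 arrays of a line are 1 cell line under 4 treatments, so these tests concern these arrays, not independent lines. Of the members, 14 (18.4%) were called in all 3 line comparisons and 14 (18.4%) in none, beside 15.3% and 30.4% of all genes tested. The count in OCI-LY3 against OCI-HBL1 was 26 without the CPI203 arrays. Under poly-A scaling the splits were 9 higher and 18 lower, 4 and 37, and 25 and 4 in the 3 comparisons as listed, and under median centring 14 and 28 in the first and 19 and 18 in the third. Of the 68 cytosolic ribosomal proteins, 6, 9 and 10 were called in these comparisons.

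MRPL2, a homolog of the bacterial protein near the site of peptide bond formation, differed most. It averaged 6.52 ± 0.15 in OCI-LY3 and 6.67 ± 0.15 in OCI-LY10, against 8.81 ± 0.08 in OCI-HBL1 (SD, n = 4 arrays), and none of the values in either line reached the OCI-HBL1 range of 8.75 to 8.92. The difference was -2.28 ± 0.12 for OCI-LY3 against OCI-HBL1 and -2.14 ± 0.12 for OCI-LY10 against OCI-HBL1 (limma, adjusted p = 3.1e-07 and 4.4e-07), while OCI-LY3 and OCI-LY10 differed by -0.14 ± 0.12 (adjusted p = 0.35). No treatment comparison called MRPL2. MRPS18A was also lower in OCI-LY3 (8.69 ± 0.22) and in OCI-LY10 (8.40 ± 0.38) than in OCI-HBL1 (9.57 ± 0.15), without overlap.

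Other members set OCI-LY10 or OCI-LY3 apart. MRPS33, a small-subunit protein found only in mitochondria, averaged 8.73 ± 0.15 in OCI-LY10 and 10.23 ± 0.10 in OCI-HBL1, a difference of -1.50 ± 0.11. MRPS26 was higher in OCI-LY3 (10.12 ± 0.35) than in OCI-LY10 (8.99 ± 0.38) and OCI-HBL1 (9.04 ± 0.39), and OCI-LY10 minus OCI-HBL1 was -0.05 ± 0.08 (adjusted p = 0.65). MRPL45 stood 1.25 ± 0.12 higher in OCI-LY3 than in OCI-LY10 and MRPL24 1.36 ± 0.13 higher (limma, adjusted p = 2.6e-05 and 2.3e-05). Some members ran the other way from MRPL2. MRPL32, MRPS24 and MRPS17, all with bacterial homologs, were higher in OCI-LY10 than in OCI-HBL1 by 1.54 ± 0.14, 1.50 ± 0.10 and 1.23 ± 0.09, and higher in OCI-LY3 than in OCI-HBL1 by 0.89 ± 0.14, 1.27 ± 0.10 and 0.84 ± 0.09. Each of the 6 line differences had an adjusted p of at most 0.00044, and neither line's range overlapped that of OCI-HBL1.

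**Figure D5:**
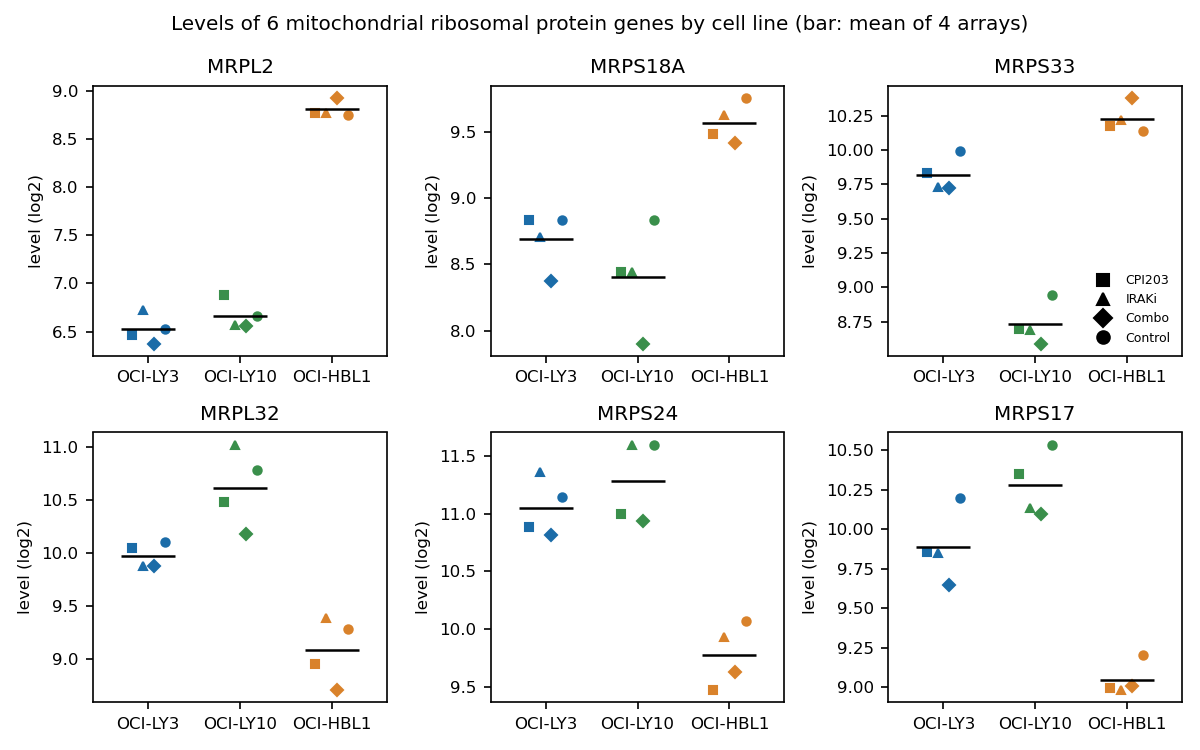
Level (log2) of 6 genes in the 3 cell lines, with 1 symbol per treatment and a bar for the mean of the 4 arrays. MRPL2 and MRPS18A lie highest in OCI-HBL1, MRPS33 lies lowest in OCI-LY10, and MRPL32, MRPS24 and MRPS17 lie lowest in OCI-HBL1.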

How the data were processed

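The deposited values are log2 expression levels that the authors made with RMA in Affymetrix Expression Console 1.1, per the submitters' processing notes, from 12 arrays of 49386 probe sets. No probe library or genome build for the array is given in the sources used here. RMA corrects background and equalises the arrays' distributions, so a shift shared by most genes cannot be seen in it, and another background correction could not be tried on the finished values. Genes came from the 45253 probe sets annotated to 1 gene, with 99.82% of symbols matched to the reference table. A gene was tested when its brightest probe set exceeded 4.20 (log2), the 40th percentile of the whole table, on 3 or more arrays, which left 13120 of 18239 genes.

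The fit was limma 3.58.1 (lmFit, contrasts.fit, eBayes) in R 4.3.3, with treatment and cell line as terms on all 12 arrays, 6 residual and 3.66 prior degrees of freedom. Tests were two-sided with Benjamini-Hochberg adjustment over all tested genes. The number of arrays limits the precision. In simulated data for Combo against Control, 200 of 13120 genes were shifted. Of genes shifted by a log2 value of 0.5, 25.4% were called, with 77.6% at a shift of 1 and 93.9% at a shift of 2, beside 12 genes that had no shift. In the measured data 32.1% of genes were called, which makes the adjusted threshold less strict, so these shares do not carry over to that comparison. Arrays were paired because same-numbered samples are the same cell line, and deviations from group means correlated at 0.819 to 0.907 within lines (18 pairs of arrays) and at -0.554 to -0.351 between lines (48 pairs). Deviations in a group sum to 0 over its lines, so the negative sign between lines follows from the subtraction and is no evidence of pairing. Alternatives were averaging the probe sets of each gene, no filter or a stricter one, median centring, cyclic loess, poly-A scaling, trend and robust estimation, no replicate block, only the groups compared, and arrays or lines left out. Tables and figures used Python 3.11.15, pandas 2.3.3 and matplotlib 3.10.9.

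Members, lists, tests and the rule for named genes were chosen with earlier results of these data known. That rule takes up to 10 highest and 10 lowest called members per treatment comparison with the same sign in every line, up to 5 each way per line comparison, a fixed set of members by role, and up to 4 called genes each way per list. Genes named outside it were chosen after their values were seen. They include MRPS21, MRPL1 and MRPL12 under IRAKi, MRPS24 under CPI203, MRPS26 in the interaction, and MYC under CPI203 and IRAKi. DAP3 among the subunits without an MRP symbol and the full list of members not called also lie outside the rule. So do MRPL2 in OCI-LY3 against OCI-LY10 and MRPS26 in OCI-LY10 against OCI-HBL1. The promoters shown were picked by a rule of their own, given with the sequences. The long noncoding MRPL20-AS1 was left out, and METTL17, GFM2 and AURKAIP1 had no probe set of their own.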

Additional observations from a re-analysis of the deposited data

How the results depend on the processing

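Counts of members called are given as comparison and setting. CPI203 against Control (11) gave 19 with a filter at the 60th percentile, 20 scaled to poly-A spike-ins, 26 with trend and robust estimation, 7 with only the 2 groups and 0 to 4 with 1 line left out. Combo against Control (51) gave 20 with only the 2 groups and 17 to 48 with 1 line or the OCI-LY10 IRAKi array left out, and 39 with median centring and 70, all lower, with poly-A scaling, under which 43.0% of all genes tested were also called lower. Combo against CPI203 (6) gave 10 with the stricter filter, 13 with trend and robust estimation, 1 with only the 2 groups and 0 with any line left out. Combo against IRAKi (27) gave 7 with only the 2 groups, 16 without the OCI-LY10 IRAKi array and 4 to 20 with 1 line left out. IRAKi against Control (0) gave 2 with trend and robust estimation. Without the replicate block (a model of treatment alone) these counts were 0, 3, 0, 0 and 0, and the calls over all genes in Combo against Control were 465 in place of 4214. The interaction stayed at 0 in each fit run. OCI-LY3 against OCI-HBL1 (43) gave 27 with poly-A scaling and 26 to 34 with 1 treatment left out, OCI-LY10 against OCI-HBL1 (51) gave 41 to 46, and OCI-LY3 against OCI-LY10 (39) gave 31 to 35. Fits with fewer arrays have fewer degrees of freedom; the cause of the other differences was not tested. Of 1040 values of named members under the alternatives, 864 kept direction and side of the threshold, 170 lost the call, 2 gained one and 4 reversed. The reversals were all in Combo against Control: MRPL10 at -0.026 and MRPL44 at -0.43 with poly-A scaling, MRPL44 at -0.012 without OCI-LY3 (leave-one-out range -0.012 to 0.085) and MRPS16 at 0.071 without OCI-LY10 (range -0.26 to 0.071). Dim signal limits few members, since all 76 passed the filter.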
